A study of Arabidopsis thaliana with 18 samples.

Results

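The iron deficiency genes *bHLH101* (AT5G04150), *PYE* (*POPEYE*, AT3G47640) and AT1G47400 were followed on ATH1 arrays of *Arabidopsis thaliana* shoots. Each of the 3 genes had 1 probe set that names it alone, and they make up 3 of the 13286 genes named on the arrays. They were taken as chosen on their levels under phosphate limitation in these same arrays, although the values used for the choice were not stated. Their phosphate values are therefore given as a description, with no test, while the oxidative treatment and the genotype were tested. Neither the files nor the annotation used here names AT1G47400 or gives it a role, and it is called by its locus. Its name as an iron deficiency gene came with the choice of the 3 genes and was not checked here.

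The arrays held RNA from the aerial parts of 18-day-old seedlings of the Col-0 background, either the wild type (WT) or *pad2-1*, a mutant allele of *GSH1*, which encodes the first enzyme of glutathione synthesis. *pad2-1* was the only mutant allele on the arrays. All seedlings grew on Murashige and Skoog agar with sucrose, which was left as it was (control), given methyl viologen (MV), a herbicide that makes reactive oxygen species in the chloroplast, or made with 20% of the usual phosphate (P-lim). The methods give the MV concentration as 0.05 µM and the labels as 0.05 M. Each of the 6 groups had 3 arrays, and each array held a single biological replicate according to the methods. Since the free text of the treated WT samples speaks of normal medium, groups were read from titles and treatment labels.

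Iron is scarce in soluble form, and plants answer a shortage with a cascade of bHLH transcription factors. *bHLH101* belongs to the Ib group of these factors, which act together with FIT in roots to switch on the genes that reduce and take up iron. *PYE* encodes another bHLH factor, which holds back genes of iron transport and chelation in iron-deficient plants. Both genes rise when iron is short, and both are turned on by a further group of bHLH factors that includes ILR3, bHLH34, bHLH104 and bHLH115.

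Levels are log2 expression values from the robust multi-array average (RMA), in which 1 unit is a doubling of the signal. RMA gives all arrays a like distribution and compresses signal near the background. Where arrays of different groups are said not to overlap, the share of all probe sets that separate so was not counted. Such separation is a description, and the shares of probe sets called refer to the limma test. The lower quartile of an array lay between 3.80 and 3.91, its median between 5.89 and 5.97, and arrays of 1 group correlated with each other at a Pearson r of 0.9964 to 0.9984. Of the leaf markers, 1 of 8 was measured, *RCA* (Rubisco activase), with group means of 13.19 to 13.27. Of the root markers, 1 of 9 was measured, *EXPA7* (a root hair expansin), with group means of 4.10 to 4.35, close to the lower quartile. No probe set analysed here names *GSH1*, so the genotype labels were not checked against the mutated gene.

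The level of the 3 genes was lowest under P-lim in both genotypes. On the WT control arrays *bHLH101* read 7.22, 7.00 and 6.59, and on the WT P-lim arrays 3.31, 3.14 and 3.20. In *pad2-1* it read 7.85, 7.37 and 7.36 under the control condition and 3.45, 3.32 and 3.41 under P-lim. Every P-lim array thus lay far below every control array, and the means differed by -3.72 on the log2 scale in WT (a 13.2-fold lower signal) and by -4.14 in *pad2-1* (17.6-fold). As these are bulk shoots, fewer cells that express a gene and less RNA of it per cell cannot be told apart.

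*PYE* read 7.58, 7.45 and 7.30 on the WT control arrays and 5.47, 5.29 and 5.35 on the WT P-lim arrays. In *pad2-1* its values were 7.79, 7.46 and 7.67 under the control condition and 5.34, 5.43 and 5.63 under P-lim. The groups did not overlap in either genotype, and the differences of -2.07 in WT (4.21-fold lower) and -2.17 in *pad2-1* (4.51-fold lower) were the smallest of the 3 genes.

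AT1G47400 had the widest span. It read 9.29, 8.99 and 8.82 in WT and 10.08, 9.83 and 10.01 in *pad2-1* under the control condition. Under P-lim it read 3.37, 3.15 and 3.09 in WT and 3.02, 2.67 and 3.67 in *pad2-1*. It was thus brighter than 89.1% to 92.3% of all probe sets on the WT control arrays and brighter than 10.8% to 15.4% of them on the WT P-lim arrays. The difference was -5.83 in WT (56.9-fold lower) and -6.85 in *pad2-1* (115.5-fold lower), the lowest of all 22746 probe sets in both genotypes.

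In the same order from the lowest, *bHLH101* stood at rank 4 in WT and 4 in *pad2-1*, and *PYE* at rank 15 in WT and 25 in *pad2-1*. With the genes taken as chosen on these values, the ranks are no evidence of their own. Under P-lim, *bHLH101* and AT1G47400 lay below the lower quartile of the arrays, where RMA compresses differences, so their folds also depend on the background. *PYE* kept a level brighter than 42.5% to 44.5% of probe sets in WT and 42.8% to 46.2% in *pad2-1*. AT1G47395 lies next to AT1G47400 in the annotation and no probe set names it. Whether the AT1G47400 probe set also reads that neighbour was not tested.

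**Figure D1:**
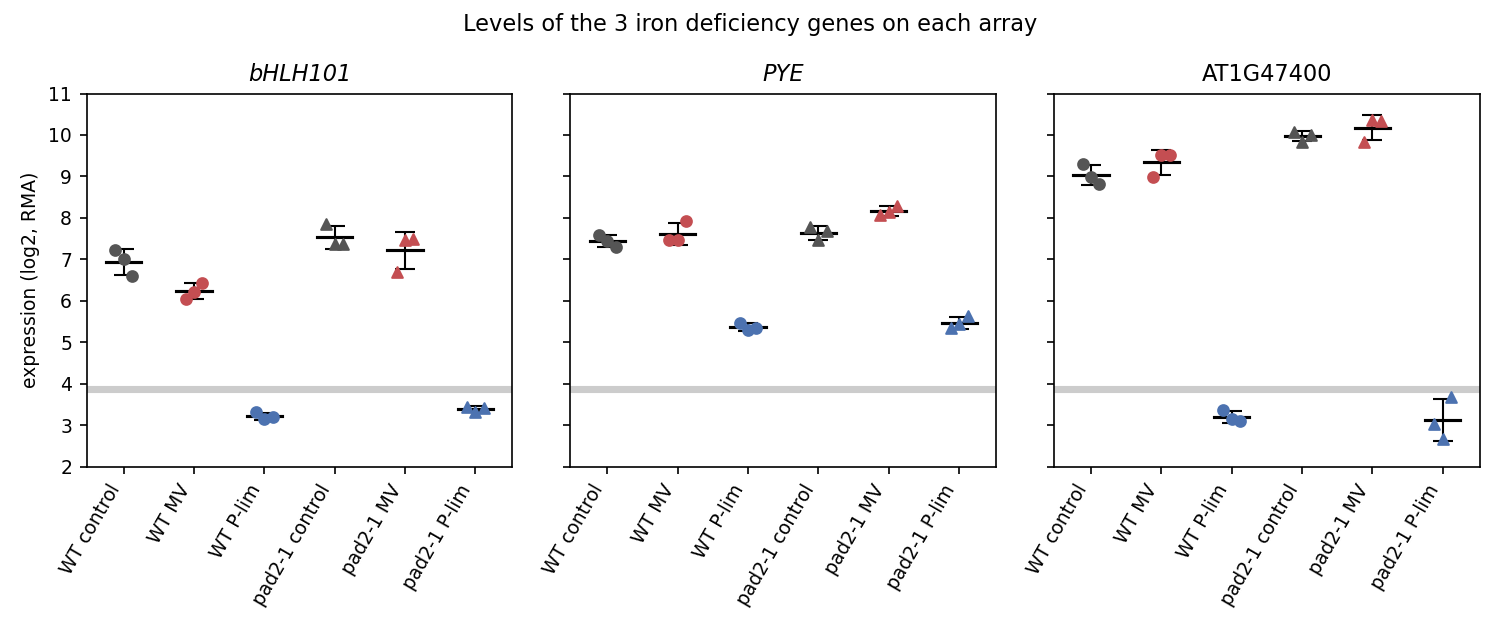
Expression of *bHLH101*, *PYE* and AT1G47400 (log2, RMA) in the 6 groups, with a point for each array, the mean of 3 arrays and bars of 1 SD. The grey band spans the lower quartiles of the arrays, 3.80 to 3.91. All P-lim points of *bHLH101* and AT1G47400 lie below it, and those of *PYE* lie between 5.29 and 5.63.

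Under MV the differences were negative for *bHLH101* and positive for *PYE* and AT1G47400 in both genotypes, but most did not pass. In neither genotype did genes pass with opposite signs. *bHLH101*, the Ib factor, fell in WT, *PYE* rose in *pad2-1*, and AT1G47400 did not pass the test in either genotype. Both calls were lost when certain single arrays were left out. The control arrays of these comparisons are also those of the P-lim comparisons on which the genes were taken as chosen. The tests of MV are therefore not fully independent of that choice.

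On the WT MV arrays *bHLH101* read 6.04, 6.22 and 6.44, all below the 3 WT control arrays. The mean went from 6.94 ± 0.32 to 6.23 ± 0.20 (SD, n = 3 each), a difference of -0.70 with a standard error of 0.19 and a limma adjusted p of 0.0164. Among all probe sets, 5.56% were called lower by MV in WT and 7.98% higher at an adjusted p under 0.05. The call was lost without WT control replicate 1 (limma adjusted p 0.0948), WT control replicate 2 (0.0597) or WT MV replicate 1 (0.0778). In *pad2-1* under MV the gene read 6.69, 7.46 and 7.50, which overlapped the *pad2-1* control arrays. The difference there was -0.31, with a 95% confidence interval of -0.70 to 0.08 (limma adjusted p 0.385), against 3.85% of probe sets called lower and 4.16% called higher.

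*PYE*, the repressor, read 8.07, 8.14 and 8.28 in *pad2-1* under MV. All 3 values were above the *pad2-1* control arrays, with a mean that went from 7.64 ± 0.17 to 8.16 ± 0.11 (SD, n = 3 each). The difference was 0.52 with a standard error of 0.12 (limma adjusted p 0.00861), and the call was lost without *pad2-1* control replicate 2 (limma adjusted p 0.0511). In WT under MV *PYE* read 7.46, 7.46 and 7.93, overlapping the control arrays. That difference was 0.17, with a 95% confidence interval of -0.07 to 0.42 (limma adjusted p 0.406).

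AT1G47400 read 8.99, 9.51 and 9.53 in WT under MV and 9.84, 10.36 and 10.34 in *pad2-1* under MV, and both groups overlapped their controls. The MV difference was 0.31 in WT (95% confidence interval -0.12 to 0.74, limma adjusted p 0.395) and 0.21 in *pad2-1* (-0.23 to 0.64, limma adjusted p 0.66). These intervals leave room for changes of either sign. Without single arrays the difference ranged from 0.20 to 0.48 in WT and from 0.12 to 0.38 in *pad2-1*.

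The answer to MV in *pad2-1* was set against that in WT by the interaction term, for which 1.65% of all probe sets were called in either direction. None of the 3 genes passed. The interaction was 0.39 for *bHLH101* (95% confidence interval -0.16 to 0.94, limma adjusted p 0.608) and 0.35 for *PYE* (-0.0017 to 0.70, limma adjusted p 0.409, unadjusted p 0.051). For AT1G47400 it was -0.10 (-0.71 to 0.51, limma adjusted p 0.934). The fall of *bHLH101* in WT and the rise of *PYE* in *pad2-1* are therefore not shown to differ from the values in the other genotype.

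Levels in *pad2-1* were set against WT in each condition. Under MV all 3 were higher in *pad2-1*. The MV arrays do not enter the P-lim comparisons. As the 3 genes were chosen with earlier results of these data known, this test is not shown to be independent of the choice. All 3 passed in limma, while 2.34% of all probe sets were called higher in *pad2-1* under MV and 2.82% lower. Every *pad2-1* array was also above every WT array for each gene, which is a description. The 3 results come from the same arrays and are not independent, as deviations from the group means correlated at an r of 0.645 to 0.654 between the genes. *bHLH101* was higher by 0.98 with a standard error of 0.19 (1.98-fold, limma adjusted p 0.00335), with means of 6.23 ± 0.20 in WT and 7.22 ± 0.45 in *pad2-1* (SD, n = 3 each). This call held without any single array of the groups.

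The MV mean of *PYE* was 7.62 ± 0.27 in WT and 8.16 ± 0.11 in *pad2-1* (SD, n = 3 each), a difference of 0.55 with a standard error of 0.12 (1.46-fold, limma adjusted p 0.00931). AT1G47400 had means of 9.34 ± 0.30 and 10.18 ± 0.29 (SD, n = 3 each), a difference of 0.83 with a standard error of 0.21 (1.78-fold, limma adjusted p 0.022). Both calls turned on single arrays. For *PYE* the call was lost without WT MV replicate 1 (limma adjusted p 0.0539) or *pad2-1* MV replicate 3 (0.0555). For AT1G47400 it was lost without WT MV replicate 1 (limma adjusted p 0.114), *pad2-1* MV replicate 2 (0.0978) or *pad2-1* MV replicate 3 (0.0987).

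Under the control condition, AT1G47400 was higher in *pad2-1* by 0.94 with a standard error of 0.21 (1.92-fold, limma adjusted p 0.00783), from a WT mean of 9.03 ± 0.24 to 9.97 ± 0.13 (SD, n = 3 each). All 3 *pad2-1* arrays were above all 3 WT arrays, and the call held without any single array. Of all probe sets, 3.66% were called higher in *pad2-1* under the control condition and 2.69% lower. These control arrays too entered the P-lim comparisons on which the genes were taken as chosen, so the test is not fully independent of that choice. *bHLH101* lay higher in *pad2-1* on all 3 arrays too, by 0.59 (95% confidence interval 0.20 to 0.98). It did not pass the test (limma adjusted p 0.0723), except without WT control replicate 1 (limma adjusted p 0.0456). The values of *PYE* overlapped, with a difference of 0.20 (-0.05 to 0.45, limma adjusted p 0.433).

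The genotypes under P-lim are given with no test, since these arrays were taken as used in the choice. *bHLH101* and AT1G47400 lay there below the lower quartile of the arrays, where RMA compresses differences, so a small gap between genotypes may not show a like level of transcript. *bHLH101* differed by 0.18 between *pad2-1* and WT, and the values of the 2 groups did not overlap. *PYE* differed by 0.10 and AT1G47400 by -0.08, and both overlapped. The P-lim difference in *pad2-1* minus that in WT was -0.42 for *bHLH101*, -0.10 for *PYE* and -1.02 for AT1G47400, on the log2 scale. For AT1G47400 the control means were 9.97 in *pad2-1* and 9.03 in WT, while the P-lim means were 3.12 ± 0.51 in *pad2-1* and 3.20 ± 0.14 in WT (SD, n = 3 each), both near the background, so the size of its value depends on the background too.

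**Figure D2:**
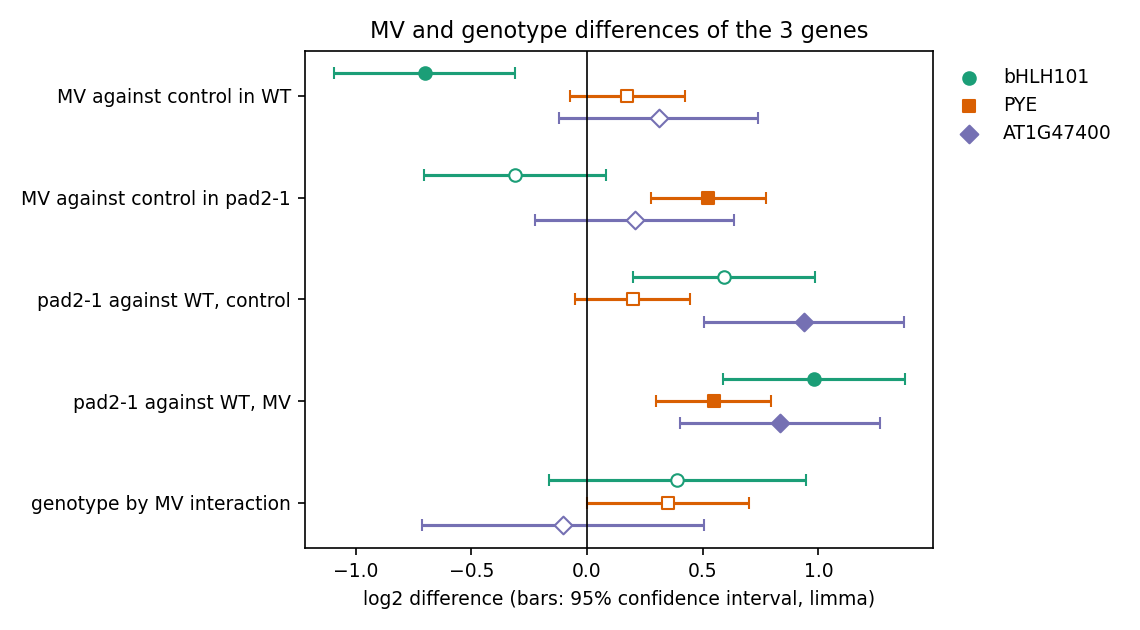
Differences of *bHLH101*, *PYE* and AT1G47400 (log2) for MV against control in each genotype, *pad2-1* against WT in 2 conditions, and the interaction of genotype with MV. Bars are 95% confidence intervals from limma and filled markers have an adjusted p under 0.05. All 3 genes are filled for *pad2-1* against WT under MV, at 0.98, 0.55 and 0.83, and none is filled for the interaction.

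Ordered by mean, *bHLH101* was highest in the *pad2-1* control group, followed by *pad2-1* MV, WT control, WT MV, *pad2-1* P-lim and WT P-lim. The values of *pad2-1* control and *pad2-1* MV overlapped, as did those of *pad2-1* MV and WT control, and the other neighbours did not. *PYE* ran from *pad2-1* MV over *pad2-1* control, WT MV, WT control and *pad2-1* P-lim to WT P-lim. Neighbours overlapped except *pad2-1* MV with *pad2-1* control, and WT control with *pad2-1* P-lim. AT1G47400 ran from *pad2-1* MV over *pad2-1* control, WT MV, WT control and WT P-lim to *pad2-1* P-lim. Its MV and control groups overlapped within each genotype, as did the 2 P-lim groups, and the other neighbours did not.

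The 3 genes went up and down together over the 18 arrays, with a Pearson r of 0.964 for *bHLH101* and *PYE*, 0.98 for *bHLH101* and AT1G47400, and 0.988 for *PYE* and AT1G47400. Most of this is the gap between the P-lim arrays and the rest. Over the 12 control and MV arrays, r was 0.385 for *bHLH101* and *PYE*, 0.673 for *bHLH101* and AT1G47400, and 0.79 for *PYE* and AT1G47400. Once the group means were taken off, r lay between 0.645 and 0.654 for the 3 pairs. The points of each pair share their arrays and so any technical variation between arrays, and the r values are a description.

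Other genes of iron homeostasis were read from lists of 65 genes, of which 15 had a probe set naming them alone and 50 were not analysed here, among them *FIT*, *IRT1* and *FRO2*. Of the 15, 6 had a mean above the median probe set (5.93). Under P-lim in WT, 1 of 15 was higher, none was lower and 14 did not pass, against 4.92% of all probe sets higher and 4.28% lower. In *pad2-1*, 1 was higher, 1 was lower and 13 did not pass, against 6.58% and 5.23%. The median difference of the 15 was 0.01 in each genotype, against 0.01 for all probe sets in WT and 0.02 in *pad2-1*. The 15 do not stand for iron genes at large. Of them 9 were bHLH factors, while 1 of 23 genes of transport and chelation and 0 of 12 of storage and iron proteins were measured. AT4G37850, AT2G22750 and AT2G22760 had means of 2.54, 2.64 and 3.36, below the lower quartile of the arrays, where a fall may not show.

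The transcripts of the factors upstream of *bHLH101* and *PYE* did not share their low P-lim levels, and the proteins were not measured. *bHLH115* was the gene that rose, from a mean of 7.66 ± 0.055 to 7.93 ± 0.060 in WT and from 7.78 ± 0.065 to 8.04 ± 0.057 in *pad2-1* (SD, n = 3 each). The differences were 0.27 in WT (limma adjusted p 0.0179) and 0.26 in *pad2-1* (limma adjusted p 0.0173). The rise was lost without WT control replicate 2 (limma adjusted p 0.0902) or WT P-lim replicates 1 (0.0596) or 2 (0.0706), and in *pad2-1* without control replicate 1 (0.0809) or P-lim replicates 2 (0.0564) or 3 (0.0702). *bHLH34*, *bHLH104* and *ILR3* differed by -0.01, 0.01 and -0.03 in WT and by 0.01, 0.19 and -0.02 in *pad2-1*, and none passed. *bHLH121*, which encodes a partner of these factors, differed by -0.13 in WT and -0.17 in *pad2-1* and did not pass. Its P-lim arrays all lay below the control arrays in both genotypes.

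The gene called lower under P-lim in *pad2-1* was AT1G74770, which the annotation used here does not name. It and AT1G18910 were the 2 genes measured of 5 on the iron list of BTS ligases and IMA peptides. AT1G74770 went from 4.84 ± 0.12 to 4.08 ± 0.18 (SD, n = 3 each), a difference of -0.75 (limma adjusted p 0.000712), and the call held without any single array. In WT the difference was -0.28 (limma adjusted p 0.217). A dimmer probe set of the same gene, with a mean of 3.01 over all arrays, differed by -0.04 in *pad2-1* (limma adjusted p 0.841). The genotypes were not shown to differ, since none of the 15 genes passed for the interaction of genotype with P-lim in limma, against 0.725% of all probe sets. The 1 gene at an unadjusted p under 0.05 was AT1G74770, at -0.47 with a standard error of 0.18 (limma adjusted p 0.371). Between *pad2-1* and WT under P-lim none passed in limma either (1 at an unadjusted p under 0.05), against 5.31% of all probe sets in either direction.

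**Figure D3:**
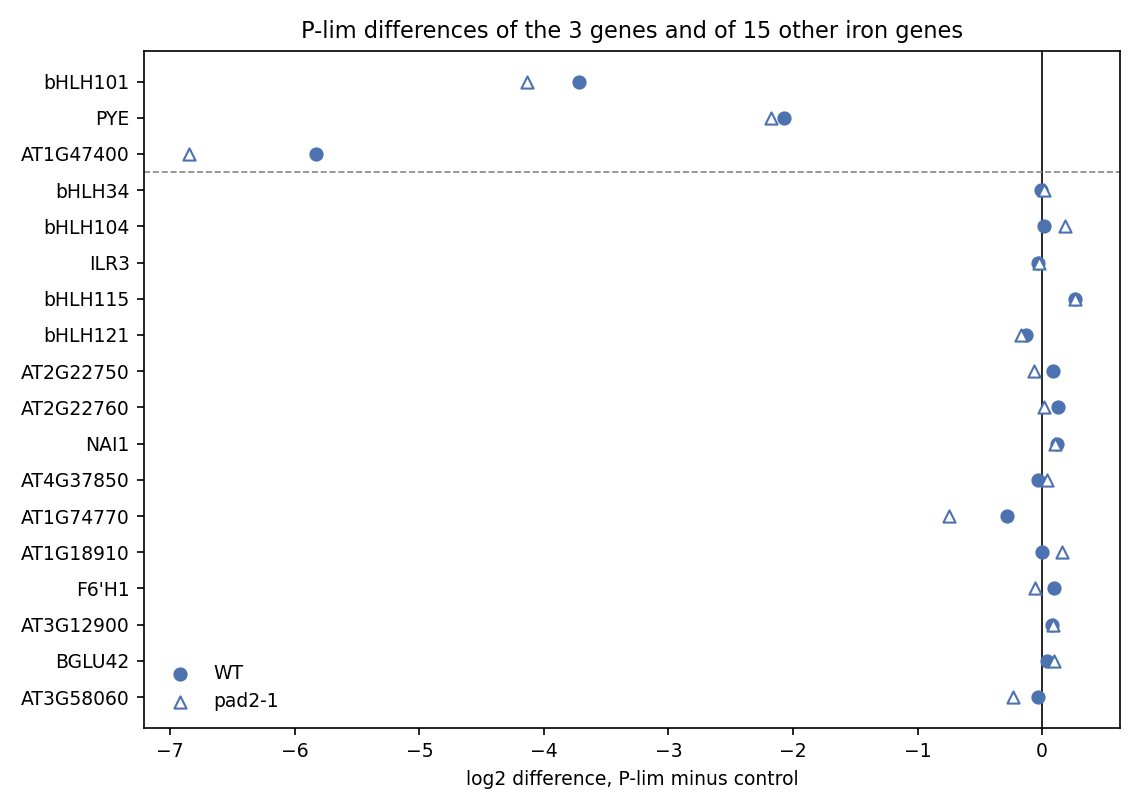
Difference of P-lim from control (log2) for *bHLH101*, *PYE* and AT1G47400, above the dashed line, and for the 15 other iron genes below it, in WT (filled circles) and *pad2-1* (open triangles). The 3 genes, taken as chosen on these values, lie between -6.85 and -2.07, and the other 15 between -0.75 and 0.27. Some of the 15 had levels near or below the lower quartile of the arrays.

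Under MV in WT, 2 of the 15 were higher, 1 was lower and 12 did not pass, against 7.98% of all probe sets higher and 5.56% lower. The 2 higher became 1 in a fit of the compared groups alone and with equal array medians. *bHLH121* fell by 0.38 (limma adjusted p 0.00319), and this call held without any single array. The rise of *bHLH115* (0.23, limma adjusted p 0.036) was lost without 5 of the 6 single arrays (limma adjusted p up to 0.183), all but WT MV replicate 1. That of AT1G18910 (0.29, limma adjusted p 0.012) was lost without WT control replicates 2 (0.0683) or 3 (0.0567) or WT MV replicate 1 (0.0639). *bHLH34*, *bHLH104* and *ILR3* did not pass in either genotype.

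In *pad2-1* under MV, 1 of the 15 was higher, 1 was lower and 13 did not pass, against 4.16% of all probe sets higher and 3.85% lower. None was higher with trended robust variances, and none was lower in a fit of the compared groups alone. AT1G18910 differed by 0.26 (limma adjusted p 0.0332), lost without 5 of the 6 single arrays (up to 0.107), all but *pad2-1* MV replicate 1. AT3G58060 differed by -0.29 (limma adjusted p 0.0238), at a mean of 3.85 that lies within the range of the lower quartiles, and was lost without *pad2-1* control replicates 2 (0.0998) or 3 (0.0932) or MV replicate 1 (0.103). None of the 15 passed for the interaction of genotype with MV in limma, with 2 at an unadjusted p under 0.05.

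Between the genotypes, 1 of the 15 genes was higher in *pad2-1* under the control condition and 1 under MV, against 3.66% and 2.34% of all probe sets, in both cases *F6'H1*, which encodes an enzyme of the coumarins that roots release to mobilise iron. Its mean was 4.44 ± 0.053 in WT and 4.97 ± 0.077 in *pad2-1* under the control condition (SD, n = 3 each), a difference of 0.53 (limma adjusted p 0.0335). Under MV the difference was 0.52 (limma adjusted p 0.0397). The control call was lost when any 1 of the 6 arrays was left out (limma adjusted p 0.0527 to 0.112). The MV call was lost without any array but *pad2-1* MV replicate 2 (limma adjusted p up to 0.175), and also with a replicate block and in a fit of the compared groups alone.

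Genes that answer a shortage of other metals or of phosphate were mostly not analysed here, with 2 of 15 copper and zinc genes and none of 11 phosphate starvation genes measured. *CCS*, which encodes the copper chaperone of superoxide dismutase, was lower in WT by 0.38 under MV (limma adjusted p 0.000241) and by 0.33 under P-lim (limma adjusted p 0.00134), and both calls held without any single array. In *pad2-1* its differences were -0.10 and -0.05 and did not pass, and neither did its interactions of genotype with MV (0.28, limma adjusted p 0.122) and with P-lim (0.28, limma adjusted p 0.178). The zinc transporter gene *ZIP9* did not pass in any of these comparisons.

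The genes most like each of the 3 were found by Pearson r over the 18 arrays among about 6000 genes with a mean above the median probe set. *bHLH101* itself lay below that median and could be no candidate. The same 4 further genes stood among the 5 most like all 3. AT5G05250 had an r of 0.972 with *bHLH101*, 0.988 with *PYE* and 0.994 with AT1G47400. AT3G56360 had 0.974, 0.976 and 0.988, AT3G17770 had 0.987, 0.977 and 0.976, and *CDI*, annotated as induced by cadmium, had 0.982, 0.948 and 0.954. The arrays share the gap between P-lim and the other conditions, on which these values mostly rest.

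All 4 were lower under P-lim in both genotypes, by less than AT1G47400. AT5G05250 had means of 9.54 ± 0.25 under the control condition and 4.68 ± 0.20 under P-lim in WT (SD, n = 3 each), a difference of -4.86, against -4.94 in *pad2-1*. AT3G56360 differed by -3.61 in WT and -3.54 in *pad2-1*. The differences of AT3G17770 were -1.29 and -1.18 and those of *CDI* -1.03 and -1.46. AT5G05250 ranked 2 and 3 from the lowest of all probe sets in WT and *pad2-1*, and AT3G56360 ranked 6 in both. These values and ranks follow largely from the choice of the genes by r and are no evidence of their own.

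When the 12 control and MV arrays were used alone, an alternative chosen after seeing the data, the lists changed. *CDI* was then the gene most like *bHLH101* (r = 0.948), and AT5G05250 ranked 2 for *PYE* (r = 0.917) while its r with *bHLH101* was 0.386. Of the 5 genes most like over 18 arrays, 1 remained among the 5 for *bHLH101*, 1 for *PYE* and 0 for AT1G47400.

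Genes at the other end, chosen by their lowest r, ran opposite to the 3, so their P-lim values too follow largely from the choice. *SAPX*, which encodes a chloroplast ascorbate peroxidase, a haem enzyme that removes hydrogen peroxide, had an r of -0.974 with *bHLH101* and -0.963 with AT1G47400. Its mean went from 7.95 ± 0.21 under the control condition to 9.54 ± 0.013 under P-lim in WT (SD, n = 3 each), a difference of 1.59, against 1.93 in *pad2-1*. AT5G59400 and AT1G68650 were among the 3 least like all 3 genes (r of -0.977 to -0.962). Their P-lim differences were 1.36 and 0.85 in WT and 1.39 and 1.18 in *pad2-1*. AT5G51010 was among the 3 least like *PYE* (r = -0.959), with P-lim differences of 0.61 and 0.79.

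**Figure D4:**
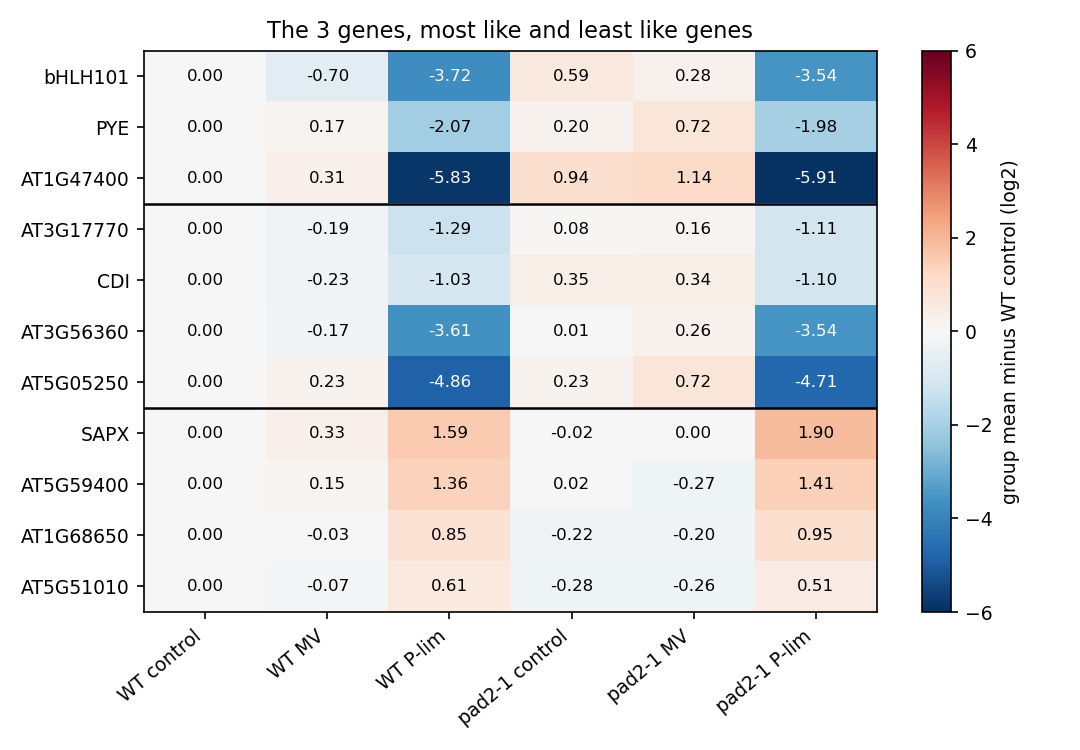
Group means minus the WT control mean (log2) for the 3 genes (top), the 4 further genes most like them (middle) and the 4 least like them (bottom), in the 6 groups. The P-lim columns run from -5.91 to 1.90, and the MV and *pad2-1* control columns stay between -0.70 and 1.14.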

How the data were processed

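RNA of 18 samples, 3 in each of 6 groups, was measured on Affymetrix ATH1 arrays. The authors deposited 1 log2 value for every probe set and array, obtained by running RMA on the 18 arrays as one set, with its background correction, quantile normalization and median polish (version not given in the sources used here). After 64 control probe sets were left out, 22746 were tested with no further scaling. A probe table lists 14016 probe sets, 13513 with 1 gene and 503 with several, and 13436 were matched to 13286 RefSeq genes, while 9310 tested probe sets had no single gene. The brightest probe set stood for a gene. limma 3.58.1 (R 4.3.3) fitted 6 group means with a moderated variance, and the Benjamini-Hochberg adjustment took in every probe set tested, with calls made under 0.05. The fit was tested on simulated data. P-values weigh a difference of group means against the moderated variance between these arrays, whose number limits the precision. Named genes are the 3 genes, measured genes of the iron lists, and the 5 most and 3 least like each gene by Pearson r. The 3 genes and the lists were chosen with earlier results of these data known. Alternatives were a fit of the compared groups alone, the dimmer 50% left out, equal medians, trended robust variances, a replicate block, each array left out, and Spearman rho.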

Additional observations from a re-analysis of the deposited data

How the results depend on the processing

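Under settings other than leaving out an array, 69 tested values of the 3 genes kept their direction and side of the threshold and 1 did not, the higher level of AT1G47400 in *pad2-1* under MV, which with trended robust variances was 0.83 (limma adjusted p 0.0629); the cause was not tested. Fitting only the groups compared lowered the probe sets called from 1821 to 1031 for MV in *pad2-1*, from 1174 to 678 between genotypes under MV, and from 2687 to 1714 for P-lim in *pad2-1*, while for P-lim in WT it raised them from 2094 to 2513. With the dimmer 50% left out, *bHLH101* had no value. With single arrays left out, the probe sets called ranged from 945 to 1281 between genotypes in the control (1444 with all arrays), 732 to 1191 under MV, 690 to 1142 under P-lim (1207), 1173 to 1690 for MV in *pad2-1*, 240 to 444 for the MV interaction (376), and 90 to 237 for the P-lim interaction (165). The log2 difference of *bHLH101* then ranged from -0.87 to -0.56 for MV in WT and from 0.42 to 0.73 between genotypes in the control. *PYE* ranged from 0.43 to 0.60 for MV in *pad2-1* and from 0.47 to 0.70 between genotypes under MV. AT1G47400 ranged from 0.66 to 1.00 between genotypes under MV, from -0.36 to 0.14 under P-lim and from -0.28 to 0.066 for the MV interaction, and both of these changed sign. Of values that did not pass, *PYE* ranged from 0.019 to 0.25 for MV in WT and from 0.12 to 0.29 between genotypes in the control, and *bHLH101* from -0.45 to -0.051 for MV in *pad2-1* and from 0.25 to 0.65 for the MV interaction. A replicate block lost the higher *F6'H1* level in *pad2-1* under MV and changed no call of the 3 genes, with a *bHLH101* difference of -0.70 for MV in WT (limma adjusted p 0.0278). Deviations of same-numbered arrays correlated at -0.185 to 0.107, with 0 of 7 comparisons having all pairs over 0.1, so the numbers were not taken as pairs. Between genotypes in the control all 3 pairs were positive (0.080, 0.107 and 0.085), while other pairs ran from -0.193 to 0.094. For each of the 3 genes, replicate 1 was the highest control array and the lowest MV array in both genotypes. A replicate block, with 1 shift for all conditions, cannot take up such a pattern, so pairing is not excluded. With Spearman rho, 2, 2 and 3 of the 5 genes most like *bHLH101*, *PYE* and AT1G47400 remained. Each of the 3 genes had 1 probe set, so no other could be tried. Levels near the lower quartile limit the P-lim values of *bHLH101* and AT1G47400.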
